A study of Mus musculus with 6 samples.

Results

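Endothelial nuclei were described in single-nucleus RNA sequencing of mouse cortical lesions, where 966 of the 60729 nuclei that passed the filter were endothelial, or 1.59%. A nucleus with at least 1000 unique molecular identifiers (UMIs, 1 for each captured RNA molecule) and under 5% mitochondrial UMIs was chosen by its own transcripts. It had to hold at least 4 of the 8 endothelial genes Flt1, Pecam1, Cldn5, Adgrl4, Cdh5, Kdr, Tek and Ptprb, and no more than 1 of the 5 genes Ptprc, Csf1r, Col1a2, Rgs5 and Abcc9, which mark immune cells, fibroblasts and mural cells. The lesions were made in the cortex of adult mice by photothrombosis, in which light and an injected dye close small vessels, and were collected at 7 and 21 days post injury (dpi). At each time there were 3 groups. Ctrl mice were wild type with no treatment listed. ADWA11 mice were wild type and received ADWA11, an antibody that blocks the integrin αvβ8, which releases active TGFβ from its latent form. Tgfbr2-cKO mice carried Col1a2(creER) and Tgfbr2(flox) and were given tamoxifen, which removes a TGFβ receptor from cells that express Col1a2, chiefly fibroblasts and not endothelium. Each group was 1 library pooled from 1 male and 1 female mouse, so there was no replicate library, and a difference between groups had no test.

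Endothelial cells line the blood vessels. In the brain they form the blood-brain barrier, with tight junctions between cells and a set of transporters that carry glucose, amino acids, lipids and hormones while pumping drugs out, a programme kept up by Wnt signalling through β-catenin and its DNA-binding partner Lef1. Plvap, a protein of the diaphragms across endothelial pores and caveolae, is found in leaky vessels and is scarce in healthy brain vessels. After injury endothelial cells can divide, sprout, lay down new basement membrane and display adhesion molecules that capture leukocytes.

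The label held against endothelial genes that the rule did not use. Over 18 such identity genes, the summed level was between 5844 and 7075 CPM (counts per 1000000 of the nuclei's non-mitochondrial UMIs) in the 6 libraries, against 137 to 888 CPM in nuclei with fewer than 4 of the 8 markers, and none of the 18 was at 0 in any library. Erg, a transcription factor of endothelial identity, was at 377 to 525 CPM against 2.8 to 69.7 CPM in those other nuclei. At the edge of the rule, the 87 nuclei with exactly 4 markers held the identity genes at 2924 CPM and the 158 nuclei outside it with exactly 3 markers held them at 500 CPM, against 6518 CPM in the 879 nuclei with 5 or more.

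The deposited libraries held 64798965 to 140310354 UMIs, and the endothelial nuclei 225730 to 1516891. Between 21 and 61 barcodes recurred between pairs of libraries, of which 0 were endothelial in both. RNA of other cells was present in the endothelial nuclei and moved with the groups. The 7 fibroblast markers summed to 1054, 868 and 157 CPM at 7 dpi in Ctrl, ADWA11 and Tgfbr2-cKO, the order of every set of 3 library values below, and to 2029, 1552 and 165 CPM at 21 dpi, with 1 marker at 0 in Tgfbr2-cKO at 21 dpi and none elsewhere. Col1a2 among them is an exclusion gene, so the choice of nuclei limits these sums. The 7 neuronal markers summed to 1817 and 1117 CPM in the Tgfbr2-cKO libraries of 7 and 21 dpi and lay between 9.6 and 44.4 CPM in the other 4. The 6 oligodendrocyte markers ranged from 37.7 CPM in ADWA11 at 21 dpi to 946 CPM in Tgfbr2-cKO at 21 dpi. At most 3 of the neuronal markers and 1 of the oligodendrocyte markers were at 0 in a library, none of them neuronal in Tgfbr2-cKO. Nuclei with fewer than 4 endothelial markers likewise held the neuronal markers at 6229 and 3210 CPM in Tgfbr2-cKO and at 36.0 to 435 CPM in the other 4 libraries. Mixed nuclei, with at least 3 markers of another class, made up 18.9% to 47.1% of the endothelial nuclei of a library, and values without them are given beside some of the results. The 5 markers of oligodendrocyte precursors summed to 99.2, 620 and 161 CPM at 7 dpi and to 624, 65.7 and 171 CPM at 21 dpi, with up to 2 of them at 0 in a library. The part of this RNA in the results was not tested.

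Endothelial nuclei were fewest in both Tgfbr2-cKO libraries. At 7 dpi they numbered 159 in Ctrl, 123 in ADWA11 and 37 in Tgfbr2-cKO, which were 2.01%, 1.13% and 0.341% of the nuclei. At 21 dpi they numbered 329, 221 and 97, or 2.73%, 1.75% and 1.53%. The exact binomial 95% intervals were 1.71% to 2.35%, 0.937% to 1.34% and 0.240% to 0.469% at 7 dpi, and 2.44% to 3.03%, 1.53% to 1.99% and 1.24% to 1.87% at 21 dpi, and like all intervals here they cover counting error only. The order of the shares within each time was the same, with Ctrl highest, although the intervals of ADWA11 and Tgfbr2-cKO overlapped at 21 dpi. The makeup of the libraries moved with these shares. Nuclei with at least 3 detected markers of neurons or glia were 74.5% and 48.7% of the Tgfbr2-cKO libraries and 6.31% to 17.6% of the others. Without them, the log2 ratio of the Tgfbr2-cKO share to the Ctrl share went from -2.56 to -0.76 at 7 dpi and from -0.83 to -0.15 (95% interval -0.49 to 0.18) at 21 dpi. So did Col1a2, an exclusion gene of the rule. Of the endothelial nuclei, 50.9%, 53.7% and 21.6% held a Col1a2 UMI at 7 dpi, and 70.8%, 59.7% and 5.15% at 21 dpi, beside 71.5%, 63.7%, 7.62%, 87.5%, 72.7% and 19.3% of the nuclei with fewer than 4 markers. The exclusion genes removed 920 of the 1886 nuclei with at least 4 endothelial markers. This loss was 42.2%, 48.5% and 15.9% at 7 dpi and 54.6%, 53.1% and 27.1% at 21 dpi, and so was smallest in Tgfbr2-cKO. When no exclusion gene was tolerated, the Tgfbr2-cKO share was the higher at 21 dpi, with a log2 ratio to Ctrl of 0.63, and the 21 against 7 dpi ratio in Ctrl went from 0.44 to -0.28. A share of nuclei does not tell fewer endothelial cells from more cells of other kinds. For ADWA11 at 21 dpi the direction also differed between the mice, with a log2 ratio to Ctrl of 0.29 in nuclei called female and -1.37 in nuclei called male, by Xist and Y-linked UMIs. Endothelial nuclei were also counted against the mural nuclei of the same library, the pericytes and smooth muscle cells of the vessel wall. Endothelial nuclei numbered 3.06, 2.62 and 0.974 per mural nucleus at 7 dpi and 3.46, 5.39 and 1.76 at 21 dpi. With the same mural nuclei and the exclusion genes not used, Ctrl stood at 5.29, ADWA11 at 5.09 and Tgfbr2-cKO at 1.16 at 7 dpi. By that count, 21 dpi gave 7.62 in Ctrl, 11.5 in ADWA11 and 2.42 in Tgfbr2-cKO. Tgfbr2-cKO was lowest at each time by either count, and its ratios rose least without the exclusion genes.

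The libraries with the most Slco1a4 had the least Plvap. Slco1a4, a transporter of organic anions in brain endothelium (Slco1a4 lies at chr6:141805440-141856199 of GRCm38, minus strand), was detected in 31.4%, 33.3% and 64.9% of endothelial nuclei in the 3 groups at 7 dpi and in 54.4%, 30.3% and 73.2% at 21 dpi. The exact intervals at 21 dpi were 48.9% to 59.9%, 24.3% to 36.8% and 63.2% to 81.7%, and they did not overlap. Plvap (chr8:71497765-71511752, minus strand) was detected in 28.9%, 28.5% and 10.8% at 7 dpi and in 22.8%, 41.6% and 14.4% at 21 dpi. ADWA11 at 21 dpi was therefore the library with the lowest share of Slco1a4, although within the intervals of Ctrl and ADWA11 at 7 dpi, and the highest of Plvap, and the Tgfbr2-cKO libraries had the highest shares of Slco1a4 and the lowest of Plvap. As a measure of free RNA, nuclei with myeloid markers held Slco1a4 in 0.21% to 1.22% and Plvap in 0.29% to 1.34%. Because depth differed, with median UMIs of 3670 to 6653 per endothelial nucleus, every nucleus was also thinned to 1000 UMIs. Slco1a4 then stood at 22.0%, 23.6%, 54.1%, 37.7%, 19.5% and 62.9% in the same order and Plvap at 10.7%, 5.69%, 2.70%, 9.12%, 20.4% and 5.15%, so the highest and the lowest libraries were the same for Slco1a4 and Plvap was again highest in ADWA11 at 21 dpi. At 21 dpi Slco1a4 was in 54.8% and 55.1% of the female and male nuclei of Ctrl, 35.9% and 26.7% of ADWA11 and 81.4% and 63.0% of Tgfbr2-cKO, and Plvap in 20% and 22.5%, 46.6% and 37.3%, and 14.0% and 11.1%. The order of the 3 groups at 21 dpi was thus the same in the female and the male animals, each of which was 1 mouse, so sex and animal cannot be told apart. At 7 dpi the mice differed in order. Slco1a4 was in 32.8% of the female and 29.0% of the male nuclei of Ctrl and in 16.7% and 46.8% of those of ADWA11, and Plvap in 34.5% and 31.9% and in 39.6% and 19.1%. The female nuclei of ADWA11 at 7 dpi were therefore below both ADWA11 mice at 21 dpi for Slco1a4 and above the male one for Plvap. Both genes were detected together in 4, 2 and 0 nuclei at 7 dpi and in 20, 14 and 3 nuclei at 21 dpi. The share of neural nuclei in the library was also lowest in ADWA11 at 21 dpi and highest in the Tgfbr2-cKO libraries. Its part in the Slco1a4 and Plvap values was not tested.

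**Figure D1:**
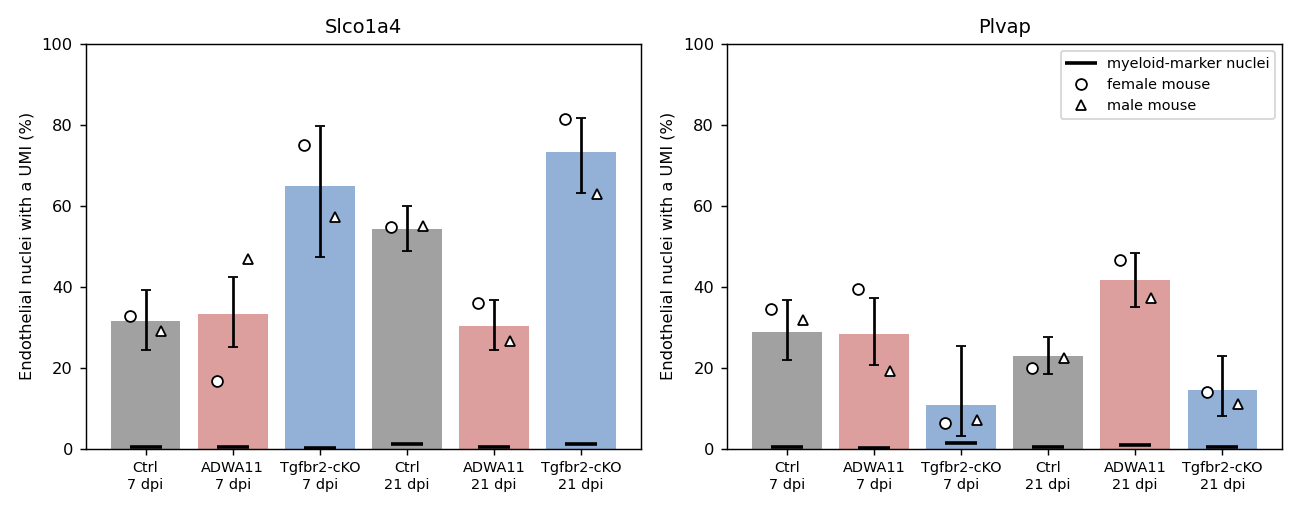
Share of endothelial nuclei with a UMI of Slco1a4 (left) or Plvap (right) in each of the 6 libraries, in percent, with exact binomial 95% intervals. Circles and triangles give nuclei called female and male (1 mouse each) and black dashes give nuclei with myeloid markers, and ADWA11 at 21 dpi has the lowest Slco1a4 bar and the highest Plvap bar.

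The barrier genes on which the comparisons below turn include Mfsd2a, a lipid transporter that holds down vesicle transport across the endothelium, and Spock2, a matrix proteoglycan of brain endothelium. Their promoters are shown because both were among the barrier genes furthest below Ctrl in ADWA11 at 21 dpi. They were also chosen because both hold the letters CTTTGA, a shortened form of the element recognised by Lef1 and related factors. Neither holds the longer form given below. The sequences are from RefSeq (GRCm38.p6) and run 5′ to 3′ on the strand of the gene, from 250 to 51 bases before the annotated start, with CTTTGA or its complement TCAAAG in capitals. Mfsd2a is on the minus strand, at chr4:122961239-122961438, with the element 115 bases before the start, and Spock2 on the plus strand, at chr10:60106007-60106206, with the element 133 bases before the start.
Mfsd2a: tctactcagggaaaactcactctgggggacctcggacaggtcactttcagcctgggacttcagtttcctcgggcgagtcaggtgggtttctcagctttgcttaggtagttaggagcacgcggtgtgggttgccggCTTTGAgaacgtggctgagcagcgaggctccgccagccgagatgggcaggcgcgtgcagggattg
Spock2: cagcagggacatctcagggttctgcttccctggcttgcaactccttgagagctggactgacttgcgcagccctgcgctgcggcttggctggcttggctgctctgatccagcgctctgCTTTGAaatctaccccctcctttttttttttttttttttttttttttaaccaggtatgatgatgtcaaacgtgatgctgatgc
Of the 30 genes of the barrier list, 26 had a promoter in the table and 6 of these held the element on either strand, or 23.1%, against 14.05% of all 27025 promoters of the same length. The longer form CTTTGAT or ATCAAAG was in 0 of the 26 and in 3.23% of all promoters. The choice of the shorter element was made after the longer one had given no match, and a match of letters is not a bound site.

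In Ctrl lesions the barrier genes that were called were higher at 21 than at 7 dpi, while the called basement membrane and sprouting genes were lower. A gene was called where the log2 ratio of its CPM was at least 1 in size and its exact conditional binomial 95% interval left out 0, among genes with at least 20 UMIs over both libraries. Of the 10198 genes compared, 1100 were called higher at 21 dpi (10.8%) and 314 lower (3.08%), with a median log2 ratio of 0.08 over all genes. Of 29 barrier genes compared, 8 were called higher and 0 lower, with 26 above 0 and a median of 0.57. Slc2a1, the glucose transporter of the barrier, stood at 148 CPM at 7 dpi and 455 CPM at 21 dpi (log2 ratio 1.63, 1.38 to 1.88). Slc7a5, which carries large neutral amino acids and thyroid hormone, went from 126 to 296 CPM (1.24), and Slco1a4 from 493 to 1153 CPM (1.23, 1.09 to 1.37). Slc2a1, Slc7a5 and Slco1a4 were all higher at 21 dpi in the female and in the male nuclei taken alone. Of the list, 14 of 26 genes were called higher in the female and 5 of 25 in the male nuclei, beside 618 of 7222 and 566 of 6656 over all genes.

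Of the 15 basement membrane genes, 8 were called lower at 21 than at 7 dpi in Ctrl and 0 higher (median -1.04). Col4a1, a chain of the collagen that makes up the basement membrane, was at 1384, 1559 and 756 CPM at 7 dpi and at 473, 816 and 578 CPM at 21 dpi in Ctrl, ADWA11 and Tgfbr2-cKO. Every 21 dpi library apart from ADWA11 was thus below every 7 dpi library. Col18a1, the collagen that gives rise to endostatin, went from 331 to 50.4 CPM in Ctrl (log2 ratio -2.72, -3.09 to -2.36) and from 326 to 87.9 CPM in ADWA11 (-1.89). Lamb1, a laminin chain, went from 207 to 53.1 CPM and from 235 to 92.7 CPM. In ADWA11, where 9601 genes were compared between the times, 855 were called higher at 21 dpi (8.91%) and 569 lower (5.93%), and the basement membrane genes had 5 of 15 called lower and 0 higher (median -0.93). In Ctrl, 3 of 15 were called lower in the male nuclei alone, beside 277 of 6656 over all genes, and 3 of 15 where the exclusion genes were not used, beside 450 of 13950.

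Tip cells, which lead a sprouting vessel, express Apln, Esm1, Angpt2 and Unc5b. Of the tip and angiogenic genes compared, 4 of 11 in Ctrl and 6 of 12 in ADWA11 were called lower at 21 dpi and 0 higher, with medians of -0.73 and -1.18. Unc5b, a netrin receptor, had log2 ratios of -2.13 and -1.43. Apln, the ligand made by tip cells, had 8, 54 and 3 UMIs at 7 dpi, and later, at 21 dpi, 1, 8 and 6. Its highest level was in ADWA11 at 7 dpi, at 57.6 CPM.

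Most of the venous and leukocyte-adhesion genes that were called between the times, in Ctrl and in ADWA11, were higher at 21 dpi. Of the venous genes, 6 of 12 in Ctrl and 6 of 11 in ADWA11 were called higher, with 1 and 2 lower, beside 10.8% and 8.91% of all genes called higher. Of the adhesion and chemokine genes, 5 of 17 and 8 of 15 were called higher and 0 lower in either. Both lists hold Vcam1, Icam1, Sele, Selp and Ackr1, so their counts are not separate results. Without mixed nuclei, 3 of 9 venous and 4 of 12 adhesion genes were called higher in ADWA11, beside 461 of 7136 over all genes. Vcam1, the adhesion molecule that binds lymphocytes and monocytes (chr3:116109949-116129688, minus strand), was at 128, 69.3 and 35.8 CPM at 7 dpi and at 421, 281 and 128 CPM at 21 dpi. All 3 groups were higher at 21 dpi, with log2 ratios of 1.72 in Ctrl (1.45 to 1.99) and 2.02 in ADWA11. Ackr1, a chemokine-binding receptor of venules, was counted as 5, 2 and 0 UMIs at 7 dpi and as 108, 23 and 11 at 21 dpi, where a count of 0 allows up to 3. Lcn2, an iron-siderophore-binding protein of inflamed vessels, had 2, 4 and 1 UMIs at 7 dpi and 165, 31 and 12 at 21 dpi, and nuclei with fewer than 4 endothelial markers also held it at 41.1 CPM in Ctrl at 21 dpi against 0.1 CPM at 7 dpi. Arterial genes had 2 of 11 called higher and 1 lower in Ctrl and 5 of 11 higher and 0 lower in ADWA11. Without mixed nuclei they had 5 of 8 higher and 0 lower in Ctrl (median 1.24, and 0.44 with them) and 4 of 8 higher and 0 lower in ADWA11. Over all genes, 577 of 7607 and 461 of 7136 were then called higher. Mgp, an inhibitor of calcification in the arterial list, was at 143, 76.8 and 282 CPM at 7 dpi and at 527, 493 and 138 CPM at 21 dpi, so Tgfbr2-cKO ran against the other groups. The lists of VEGF and angiopoietin receptors and of Notch, lymphatic, mesenchymal and hypoxia genes had only 1 to 9 genes compared in each of the 5 comparisons with calls, too few to read against the shares over all genes. Among them, 2 of 8 receptors were called lower at 21 dpi in Ctrl, beside 3.08% of all genes, and 0 of 8 without mixed nuclei. The receptors include Flt1, Kdr and Tek, which are genes of the rule, so their levels were bound by the choice of nuclei. Of the lymphatic genes, 1 of 3 in Ctrl and 1 of 2 in ADWA11 were called higher at 21 dpi, and 0 of 1 in either without mixed nuclei.

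Outside the lists, the gene first in rank among those higher at 21 dpi in both groups was Chrm2, a muscarinic acetylcholine receptor (chr6:36388084-36528414, plus strand). It had 0 UMIs in Ctrl and in ADWA11 at 7 dpi and 140 and 244 UMIs at 21 dpi, in 12.2% and 22.6% of the endothelial nuclei. Against the 3 counts per library that a count of 0 allows, the log2 ratios of CPM were 5.14 and 6.20, and with the counting error at 21 dpi at least 4.82 and 5.89. The other nuclei of these libraries held it at 1.1 to 7.0 CPM, against 92.9 and 236 CPM in endothelial nuclei at 21 dpi. In Tgfbr2-cKO, Chrm2 had 5 UMIs at 7 dpi and 22 UMIs at 21 dpi, where other nuclei held it at 82.4 and 53.3 CPM. Among the others named were Fmo2, a monooxygenase, with 0 UMIs in Ctrl at 7 dpi and 25 at 21 dpi, and in ADWA11 Eln, the elastin gene, at 78.9 CPM at 7 dpi and 650.0 CPM at 21 dpi. The genes named lower in ADWA11 were led by Anln and Diaph3, which act in cell division.

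**Figure D2:**
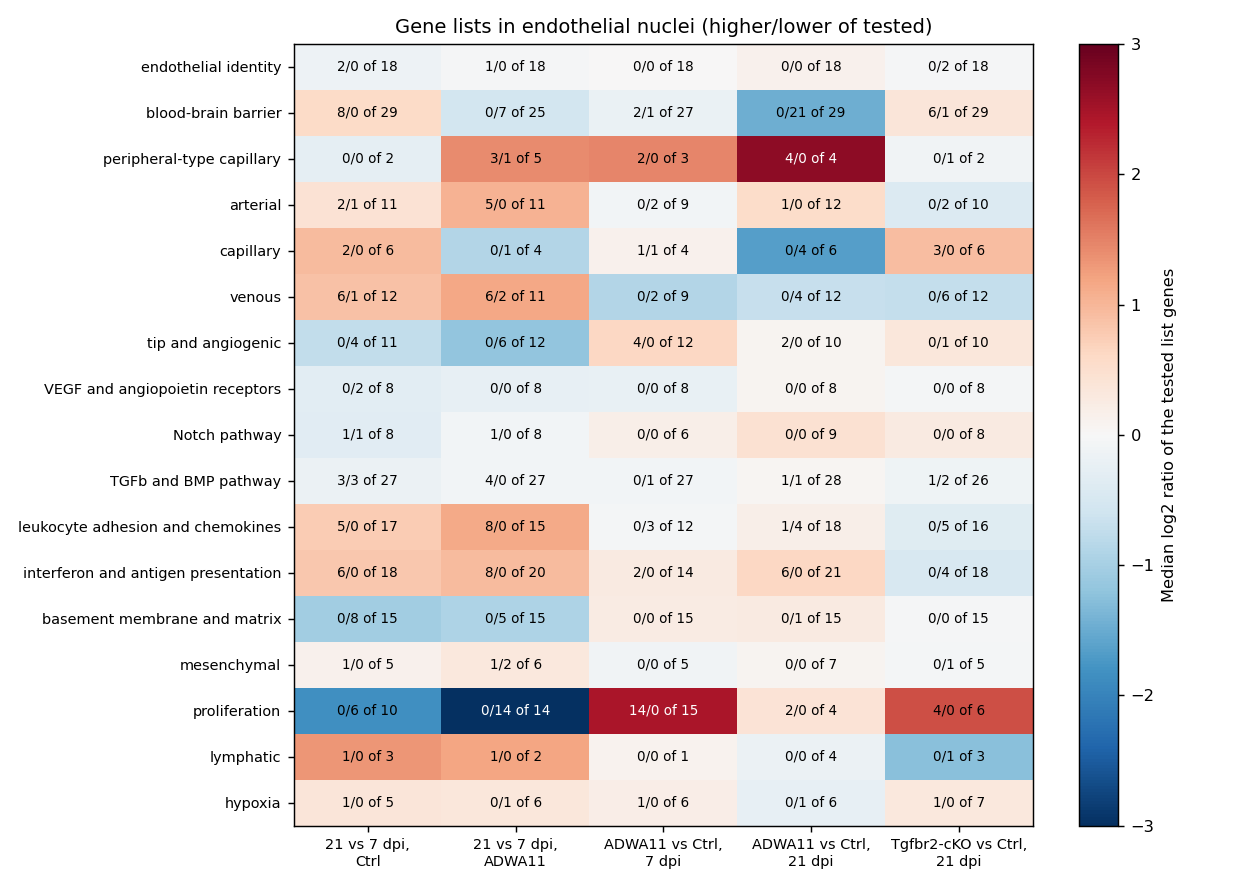
Median log2 ratio of each of 17 gene lists (rows) in 5 comparisons (columns) of endothelial nuclei, as colour, with the number of genes called higher and lower and the number compared written in each cell. The barrier row turns from above 0 in Ctrl (21 against 7 dpi) to below 0 in ADWA11 against Ctrl at 21 dpi.

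At 7 dpi, dividing endothelial nuclei were more frequent under ADWA11 than in Ctrl. Of the 9173 genes compared between ADWA11 and Ctrl, 574 were called higher in ADWA11 (6.26%) and 226 lower (2.46%). Of 15 proliferation genes compared, 14 were called higher and 0 lower, with a median log2 ratio of 2.46 against 0.08 over all genes. Mki67, a protein of dividing nuclei (chr7:135689784-135716361, minus strand), was at 33.4, 184 and 31.3 CPM in the 3 groups at 7 dpi and at 5.3, 3.9 and 12.7 CPM at 21 dpi. Top2a, the topoisomerase of replicating cells, followed at 38.6, 224 and 89.5 CPM and 2.0, 8.7 and 34.9 CPM. ADWA11 at 7 dpi was the highest library for Mki67 and Top2a. Nuclei with at least 3 of the proliferation genes were 17 of 159 in Ctrl (10.7%, 6.35% to 16.6%), 37 of 123 in ADWA11 (30.1%, 22.1% to 39.0%) and 4 of 37 in Tgfbr2-cKO (10.8%, 3.03% to 25.4%), against 1.52% to 2.06% at 21 dpi. The intervals of Ctrl and ADWA11 did not overlap, while that of Tgfbr2-cKO overlapped both. After thinning to 1000 UMIs the counts were 2, 21 and 3 nuclei. By mouse the share was 6.90% in female and 15.9% in male nuclei of Ctrl and 31.2% and 29.8% of ADWA11. The proliferation sum was also higher in the nuclei with fewer than 4 endothelial markers, at 984 CPM in ADWA11 and 627 CPM in Ctrl, while endothelial nuclei stood at 1722 and 361 CPM. The markers of oligodendrocyte precursors, which can divide, moved alike, with 99.2 CPM in the endothelial nuclei of Ctrl and 620 CPM in those of ADWA11 at 7 dpi, and 1442 and 2038 CPM in the nuclei with fewer than 4 endothelial markers. Of the 5, 2 were at 0 in Ctrl and none in ADWA11. Without mixed nuclei, 12 of 14 proliferation genes were called higher and 0 lower (median 2.65), beside 425 of 7505 called higher over all genes. Scaling by TMM moved the median of all genes from 0.08 to -0.02 in this comparison and left 13 of the 15 genes called higher.

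Between 7 and 21 dpi, 6 of 10 proliferation genes were called lower in Ctrl (median -1.83) and 14 of 14 in ADWA11 (median -4.31), and 0 higher. Over all genes, 3.08% and 5.93% were called lower. The sum went from 361 to 147 CPM in endothelial nuclei of Ctrl and from 1722 to 157 CPM in those of ADWA11. Nuclei with fewer than 4 endothelial markers also fell, from 627 to 209 CPM in Ctrl and from 984 to 199 CPM in ADWA11. In Ctrl the male nuclei alone left 1 gene to compare, which was not called. At 7 dpi the tip and angiogenic genes also had 4 of 12 called higher in ADWA11 than in Ctrl and 0 lower (median 0.63). Angpt2, the angiopoietin that loosens vessels, was at 53.6 CPM in Ctrl and 154 CPM in ADWA11 (log2 ratio 1.52, 1.08 to 1.98). The ratio was 4.38 in female and 0.17 in male nuclei. Among the genes named lower in ADWA11 at 7 dpi were Prkg1, a cGMP-dependent kinase, at 1768 against 4625 CPM, Selp, which encodes P-selectin (log2 ratio -2.53), and Il1r1, the interleukin 1 receptor, at 261 against 658 CPM. The barrier genes had 2 of 27 called higher and 1 lower (median -0.21). Their summed level at 7 dpi was 4851 and 5699 CPM in the female and male nuclei of Ctrl and 3260 and 7080 CPM in those of ADWA11, so that the mice of ADWA11 lay on either side of those of Ctrl.

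**Figure D3:**
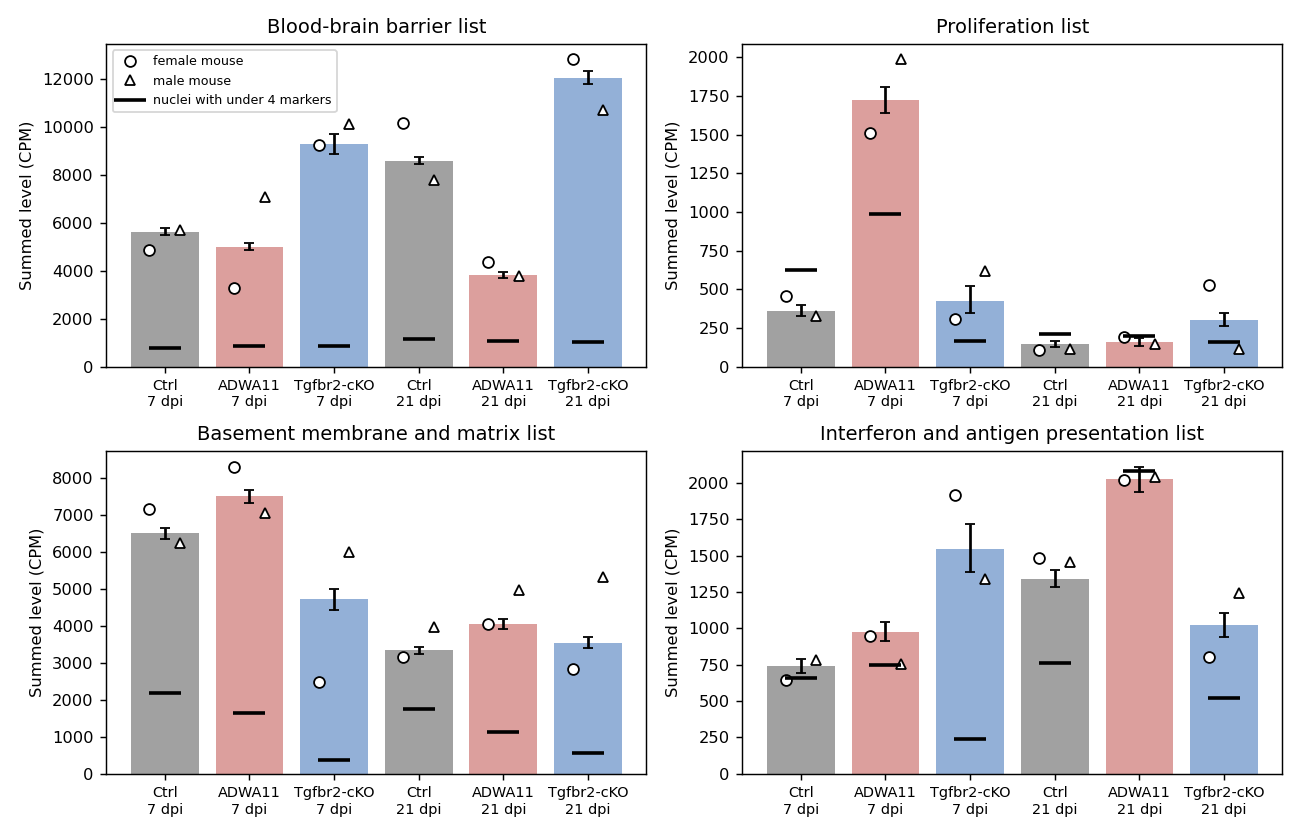
Summed CPM of 4 gene lists in endothelial nuclei of the 6 libraries, with exact Poisson 95% intervals on the bars, circles and triangles for nuclei called female and male (1 mouse each) and dashes for nuclei with fewer than 4 endothelial markers. The proliferation sum is highest in ADWA11 at 7 dpi (1722 CPM) and the barrier sum is lowest in ADWA11 at 21 dpi (3821 CPM) and highest in Tgfbr2-cKO at 21 dpi (12064 CPM).

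At 21 dpi, barrier genes were lower under ADWA11 than in Ctrl across the list. Of the 10444 genes compared, 341 were called higher in ADWA11 (3.27%) and 425 lower (4.07%). Of the 29 barrier genes compared, 21 were called lower and 0 higher, 0 were above 0, and the median log2 ratio was -1.46, against 0.05 over all genes. Spock2 was at 149, 62.9 and 282 CPM in the 3 groups at 7 dpi and at 222, 18.4 and 493 CPM at 21 dpi, with a log2 ratio of ADWA11 to Ctrl at 21 dpi of -3.59 (-4.34 to -2.93). Spock2 was the first gene in rank among those named lower. Slc7a5 was at 126, 105 and 255 CPM at 7 dpi and at 296, 60.8 and 206 CPM at 21 dpi (-2.28). Slc2a1 was at 148, 133 and 313 CPM at 7 dpi and 455, 178 and 570 CPM at 21 dpi (-1.36, -1.60 to -1.12). Mfsd2a had 27 UMIs in Ctrl and 1 UMI in ADWA11 (17.9 and 1.0 CPM, log2 ratio -4.21, -9.57 to -1.61). Lef1, the Wnt effector, was at 814 CPM in Ctrl and 297 CPM in ADWA11 (-1.45), and Apcdd1, an inhibitor of Wnt signalling, was among the genes named lower (-2.49). Abcb1a, the drug efflux pump P-glycoprotein, was at 850 and 350 CPM (-1.28).

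The median of the barrier list was below 0 in each mouse and under each alternative. In female nuclei 18 of 26 barrier genes were called lower (median -1.29) and in male nuclei 19 of 24 (median -1.68), beside 270 of 7639 and 340 of 6172 over all genes. Across the other alternatives, which included leaving out mixed nuclei and not using the exclusion genes, between 18 and 23 were called lower and 0 higher. Endothelial identity genes had 0 of 18 called in either direction (median 0.13). The summed barrier level was 8589 CPM in Ctrl and 3821 CPM in ADWA11, and 10178 and 7788 CPM in the female and male nuclei of Ctrl against 4355 and 3794 CPM in those of ADWA11. Nuclei with fewer than 4 endothelial markers held the list at 1135 and 1054 CPM. The share of neural nuclei was 11.1%, 14.0% and 74.5% at 7 dpi and 17.6%, 6.31% and 48.7% at 21 dpi. It was thus lowest in ADWA11 at 21 dpi, which had the lowest barrier sum, and highest in the Tgfbr2-cKO libraries, which had the highest sums. With 1 library per group, this makeup cannot be told apart from the group, and its part in the barrier values was not tested.

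**Figure D4:**
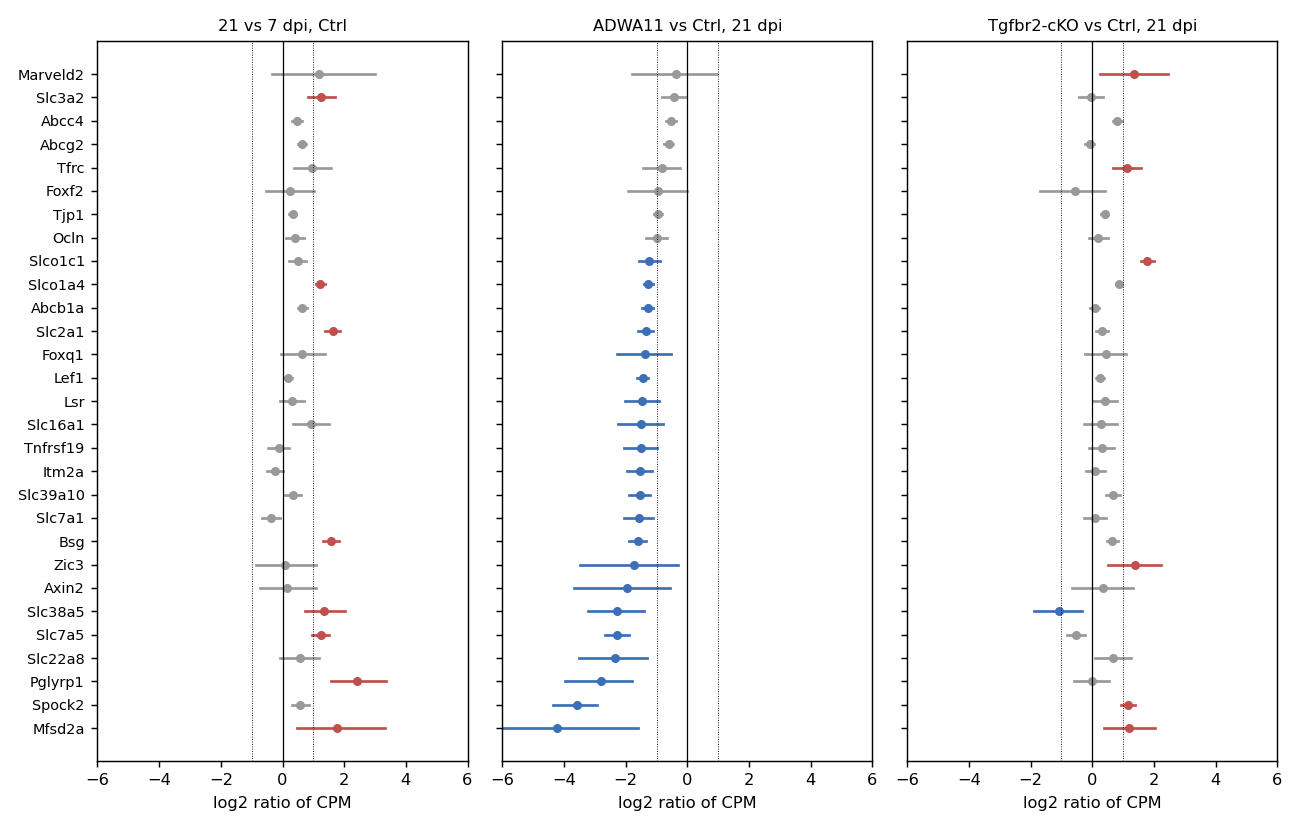
Log2 ratios of the 29 barrier genes in 3 comparisons of endothelial nuclei (21 against 7 dpi in Ctrl, ADWA11 against Ctrl and Tgfbr2-cKO against Ctrl at 21 dpi), with exact conditional 95% intervals, on an axis that ends at -6 and 6 and so does not show the whole of the widest intervals. Red and blue mark genes called higher and lower, which number 8 and 0, 0 and 21, and 6 and 1.

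The 4 genes of fenestrated and peripheral-type capillaries that could be compared were called higher in ADWA11 than in Ctrl at 21 dpi. They are too few to read against the 3.27% of all genes called higher. In endothelial nuclei the list summed to 113 CPM in Ctrl and 423 CPM in ADWA11. In nuclei with fewer than 4 endothelial markers it summed to 86.2 and 411 CPM. Plvap was at 103, 77.9 and 26.8 CPM in the 3 groups at 7 dpi and at 88.2, 207 and 41.2 CPM at 21 dpi, and its log2 ratio of ADWA11 to Ctrl at 21 dpi was 1.23 (0.91 to 1.55), with 1.33 in female and 1.61 in male nuclei. Fabp4, a fatty acid carrier, had 7 UMIs in Ctrl and 91 in ADWA11, Aqp1, a water channel, had 13 and 70, and Cd36, a fatty acid receptor, had 14 and 50. For Fabp4 and Cd36 the nuclei with fewer than 4 endothelial markers held more than the endothelial nuclei, at 155 and 248 CPM against 87.9 and 48.3 CPM in ADWA11, whereas for Aqp1 they held 6.0 CPM against 67.6 CPM. The named genes higher in ADWA11 included Npnt, a basement membrane protein (log2 ratio 2.05), and Cd300lg, a sialomucin receptor of capillaries (1.81). Abcc9, which the naming rule also returned, is an exclusion gene of the choice of nuclei, so its ratio is not a result.

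Of the interferon and antigen-presentation genes, 6 of 21 were called higher in ADWA11 than in Ctrl at 21 dpi and 0 lower (median 0.62), beside 3.27% of all genes called higher. The list summed to 1338.5 CPM in endothelial nuclei of Ctrl and 2023 CPM in those of ADWA11. Nuclei with fewer than 4 endothelial markers differed more, at 761 and 2079 CPM. Cd74, the chaperone of class II molecules, was at 6.1, 11.7 and 8.9 CPM in the 3 groups at 7 dpi and at 38.5, 196 and 20.6 CPM at 21 dpi. H2-Aa, a class II chain, had 34 UMIs in Ctrl and 88 in ADWA11 at 21 dpi (1.91). ADWA11 at 21 dpi was the highest library for Cd74 and H2-Aa. In the nuclei with fewer than 4 endothelial markers, Cd74 was at 90.7 CPM in Ctrl and 398 CPM in ADWA11 at 21 dpi, above its level in the endothelial nuclei of the same libraries. The 8 myeloid markers summed to 123 CPM in endothelial nuclei of Ctrl at 21 dpi and 179 CPM in those of ADWA11, none at 0, and their part in the class II values was not tested. Ptprc and Csf1r among them are exclusion genes, so the choice of nuclei limits these sums. Without mixed nuclei 4 of 16 genes of the list were called higher and 1 lower (median 0.25), beside 277 higher and 262 lower of 7226 over all genes. The class I genes H2-K1 and H2-D1 had log2 ratios of 0.40 and 0.37. Between 7 and 21 dpi the list had 6 of 18 called higher in Ctrl and 8 of 20 in ADWA11, with 0 lower, beside 10.8% and 8.91% of all genes called higher. The sum in ADWA11 went from 975 to 2023 CPM in endothelial nuclei and from 744 to 2079 CPM in nuclei with fewer than 4 endothelial markers. In Ctrl it went from 740 to 1338.5 CPM and from 661 to 761 CPM.

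From 7 to 21 dpi the barrier list thus had a median of 0.57 in Ctrl and, in ADWA11, 7 of 25 genes called lower, 0 higher and a median of -0.55. The comparison within ADWA11 rested on the mice. The female nuclei of ADWA11 gave a median of 0.60, with 3 of 18 genes called higher and 2 lower, and the male nuclei a median of -1.33, with 13 of 21 lower. Over all genes, 524 of 6743 were called lower in the female and 420 of 5670 in the male nuclei. Peripheral-type capillary genes had 3 of 5 called higher and 1 lower in ADWA11 from 7 to 21 dpi, too few to read against the shares over all genes. Plvap had a log2 ratio of 1.41 (0.87 in female and 2.00 in male nuclei).

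In Tgfbr2-cKO at 21 dpi, against Ctrl, 6 of 29 barrier genes were called higher and 6 of 12 venous genes lower. Of the 9994 genes compared, 644 were called higher in Tgfbr2-cKO (6.44%) and 569 lower (5.69%). Without the 5 nuclei with most UMIs of each gene, 127 were called higher and 1776 lower. In male nuclei alone 230 were higher and 380 lower, and in female nuclei 582 and 525. The 97 nuclei behind these values held 637134 UMIs, and the part of the neuronal and oligodendrocyte RNA given above in these calls was not tested. Mal, a myelin gene named higher, was at 192 CPM in the endothelial nuclei of Tgfbr2-cKO and at 28.1 CPM in the other nuclei of that library. Of the 29 barrier genes, 6 were called higher and 1 lower (median 0.36). Slco1c1, a thyroid hormone transporter, was at 147, 113 and 362 CPM at 7 dpi and at 206, 87.9 and 713 CPM at 21 dpi, with a log2 ratio to Ctrl of 1.79 (1.58 to 2.00). It was highest in Tgfbr2-cKO at both times, although its ratio at 21 dpi was 2.21 in female and 0.21 in male nuclei. Spock2 had a log2 ratio of 1.15 and Mfsd2a of 1.20, while Slc7a5 was at 206 against 296 CPM. Without mixed nuclei the barrier list had only 2 genes called higher and 1 lower (median 0.19). Over all 6840 genes then compared, 267 were called higher and 290 lower.

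Of the 12 venous genes compared, 6 were called lower in Tgfbr2-cKO than in Ctrl at 21 dpi and 0 higher (median -0.72). So were 5 of 16 adhesion and chemokine genes (median -0.37, and 0.15 without mixed nuclei). The adhesion list shares Vcam1, Ackr1 and other genes with the venous list, and its summed level was 1920 CPM in Tgfbr2-cKO and 2055 CPM in Ctrl. ADWA11 against Ctrl at 21 dpi likewise had 4 of 12 venous genes called lower and 0 higher (median -0.69). Its adhesion and chemokine genes had 4 of 18 called lower and 1 higher (median 0.18), beside 4.07% and 3.27% of all genes. In Tgfbr2-cKO, Vcam1 was at 128 CPM against 421 CPM in Ctrl (log2 ratio -1.71, -2.07 to -1.38), and its ratio was -3.19 in female and -1.13 in male nuclei. Ackr1 and Lcn2 were called lower too, with log2 ratios of -2.04 and -2.53. Cmah, which makes the sialic acid Neu5Gc (chr13:24327404-24477377, plus strand), was first in rank among the named genes. It had 155, 25 and 7 UMIs in the 3 groups at 7 dpi and 529, 121 and 5 UMIs at 21 dpi. At 21 dpi these were 351, 117 and 7.9 CPM, with a log2 ratio of Tgfbr2-cKO to Ctrl of -5.47 (-7.10 to -4.24), and the endothelial level of Tgfbr2-cKO was close to the 7.4 CPM of its nuclei with fewer than 4 endothelial markers. Cmah was higher in Ctrl than in ADWA11 and Tgfbr2-cKO at both times. Calcrl, the receptor subunit for adrenomedullin and CGRP, was at 241 against 748 CPM (-1.64, with -1.83 in female and -1.44 in male nuclei). Of the interferon and antigen-presentation genes 4 of 18 were called lower and 0 higher (median -0.49), against 0 of 9 lower in male nuclei alone.

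At 7 dpi the 37 endothelial nuclei of Tgfbr2-cKO were too few for a count of called genes, and values are given alone. Their barrier genes summed to 9289 CPM, above 5633 CPM in Ctrl and 5004 CPM in ADWA11, with 9267 CPM in the 16 female and 10119 CPM in the 14 male nuclei. Each of these animals was above each of the 4 of Ctrl and ADWA11 at 7 dpi, which ranged from 3260 to 7080 CPM. At 21 dpi both Tgfbr2-cKO animals, at 12833 and 10715 CPM, were likewise above the 4 others, which ranged from 3794 to 10178 CPM. The basement membrane genes of Tgfbr2-cKO at 7 dpi summed to 4712 CPM, against 6494 CPM in Ctrl and 7494 CPM in ADWA11, but its 2 mice were at 2489 and 6000 CPM. Its interferon and antigen-presentation genes summed to 1544 CPM, against 740 CPM in Ctrl and 975 CPM in ADWA11. By mouse they were at 1919 and 1342 CPM, above the 4 others at 646 to 945 CPM. Against Ctrl, this list thus ran the other way at 7 dpi than at 21 dpi.

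TGFβ acts on endothelium through Tgfbr2 with Tgfbr1 or Acvrl1 and the co-receptor Eng, and BMP signals share Acvrl1 and drive Id1, Id3, Smad6 and Smad7. Of the genes of the pathway, 1 of 28 was called higher and 1 lower in ADWA11 than in Ctrl at 21 dpi, beside 3.27% and 4.07% of all genes. At 7 dpi 0 of 27 were higher and 1 lower in ADWA11, beside 6.26% and 2.46%, and in Tgfbr2-cKO at 21 dpi 1 of 26 was higher and 2 lower, beside 6.44% and 5.69%. These counts between groups lay near the shares over all genes and set nothing apart about the pathway. Tgfbr2 in endothelial nuclei was at 443, 473 and 304 CPM in the 3 groups at 7 dpi and at 279, 251 and 290 CPM at 21 dpi. Tgfbr2 was read at its 3′ end, and its deletion was aimed at Col1a2-expressing cells, so its level in endothelial nuclei does not check the deletion. Acvrl1, a type I receptor, was at 219, 187 and 192 CPM and at 149, 138 and 147 CPM, and Eng at 569, 484 and 479 CPM and at 463, 660 and 423 CPM. From 7 to 21 dpi, 3 of 27 pathway genes were called higher and 3 lower in Ctrl, beside 10.8% and 3.08% of all genes. In ADWA11 4 of 27 were higher and 0 lower, beside 8.91% and 5.93%. Only 11 of the 27 in Ctrl and 13 in ADWA11 were above 0, with medians of -0.18 and -0.09. Id3, an inhibitor of differentiation induced by BMP, was at 20.2, 28.8 and 40.3 CPM at 7 dpi and at 92.2, 96.6 and 66.5 CPM at 21 dpi. For Id3 every 21 dpi library was thus above every 7 dpi library. Id1 was at 33.4, 50.1 and 62.6 CPM and then 91.5, 83.1 and 90.3 CPM, also without overlap between times. The nuclei with fewer than 4 endothelial markers also held more Id3 at 21 dpi, at 21.2 to 61.8 CPM against 2.3 to 10.8 CPM. Itgb8, the β8 chain that ADWA11 binds with its partner Itgav, was at 38.6, 36.3 and 4.5 CPM and at 42.4, 20.3 and 103 CPM in endothelial nuclei. Its call in Tgfbr2-cKO at 21 dpi (log2 ratio 1.28) rested on few nuclei, since the ratio was -1.55 without the 5 nuclei with most Itgb8 UMIs, -0.81 in female and -0.36 in male nuclei.

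Within libraries, Plvap-positive and Plvap-negative endothelial nuclei were compared, in the 5 libraries other than Tgfbr2-cKO at 7 dpi, which had 4 positive nuclei. The barrier genes summed to 2971 CPM in positive and 6942 CPM in negative nuclei of Ctrl at 7 dpi, to 2260 and 6695 CPM in ADWA11 at 7 dpi, and to 3497 and 10066 CPM in Ctrl at 21 dpi. In ADWA11 and Tgfbr2-cKO at 21 dpi they summed to 2212 and 5007 CPM and to 2764 and 13911 CPM. Positive nuclei were lower in all 5 libraries, by a mean log2 ratio of -1.57 ± 0.46 (SD, n = 5), with an exact two-sided sign-flip permutation p of 0.0625, which is the smallest that 5 libraries can give, and 0.143 after Benjamini-Hochberg adjustment over 16 tests. No test of this kind could therefore pass 0.05. Positive nuclei were deeper, with median UMIs of 3736 to 8757 against 3668 to 5999, and after thinning to 1000 UMIs the mean was -1.10 over the 3 libraries that still had enough positive nuclei. Basement membrane genes were higher in positive nuclei of all 5 libraries (0.48 ± 0.40, exact permutation p = 0.0625), leukocyte adhesion genes lower in all 5 (-0.93 ± 0.76, exact p = 0.0625) and arterial genes lower in all 5 (-0.63 ± 0.48, exact p = 0.0625). Venous genes were lower in all 5 as well (-0.34 ± 0.17, exact permutation p = 0.0625). The pathway genes of TGFβ and BMP differed by 0.09 ± 0.14, with an exact permutation p of 0.1875. A split on Angpt2, Apln or Esm1 gave lower barrier genes in positive nuclei of all 5 libraries, by -0.73 ± 0.53, and lower arterial genes, by -0.96 ± 0.45, each with an exact p of 0.0625. The other tip and angiogenic genes were above 0 in only 2 of the 5 libraries (0.12 ± 0.45, exact permutation p = 0.75). The positive nuclei of this split were thus not shown to be tip cells.

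**Figure D5:**
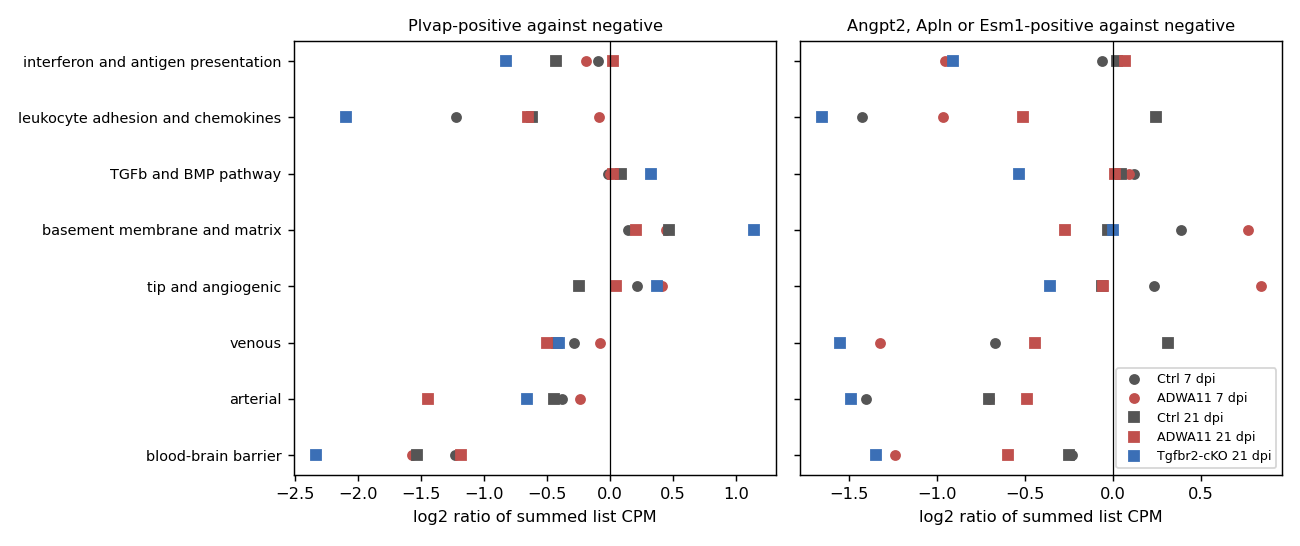
Log2 ratio of summed list CPM between positive and negative endothelial nuclei within each of 5 libraries, for nuclei split on Plvap (left) and on Angpt2, Apln or Esm1 (right), with circles for 7 dpi and squares for 21 dpi. All 5 points of the barrier list lie below 0 in both panels, between -2.33 and -1.18 for Plvap.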

How the data were processed

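Nuclei of 6 libraries, each pooled from 1 male and 1 female mouse, had been sorted on DAPI and captured on a 10x Genomics droplet system that reads 3′ ends. The authors deposited UMI counts per gene and barcode, not normalised, aligned to mm10 with Cell Ranger 7.2.0 per the file headers (7.1.0 in the submitters' processing notes). From these counts, nuclei were chosen by the rule given above, and UMIs were summed per library. The members and gene lists were chosen with earlier results of these data known. Doublets were not called. Nuclei with at least 3 markers of another class were left out as an alternative. CPM had exact Poisson intervals, shares exact Clopper-Pearson intervals and ratios exact conditional binomial intervals (Python 3.11.15, scipy 1.17.1), all at 95%. The calling step was tested on simulated counts with known changes. These were drawn with counting error only, so the test does not cover spread between nuclei or mice. Comparisons needed 50 nuclei per library. Up to 10 genes were named per direction, ranked by the bound nearest 0, with no nucleus over 20% of the UMIs, the same sign in both mice and at least 2 times the CPM of other nuclei, beside the genes of the lists. Counts of overlapping and antisense genes were taken as deposited. TMM factors came from edgeR 4.0.16. Coordinates are from GENCODE M21 (GRCm38), in which 32235 of 32285 features were matched.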

Additional observations from a re-analysis of the deposited data

Results flagged for a closer look

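Among the gene and marker lists and the shares of nuclei with Slco1a4 or Plvap, estimates from 7 to 21 dpi had opposite signs in Ctrl and ADWA11 in 6 instances, with 1 library per group and time, so none of the differences was tested. The median log2 ratio of the barrier list was 0.57 in Ctrl and -0.55 in ADWA11. That of the capillary list, which shares Mfsd2a, Spock2 and other genes with it, was 0.94 and -0.88. That of the peripheral-type capillary list was -0.26 in Ctrl, over 2 genes of which none was called, and 1.41 in ADWA11. That of the markers of oligodendrocyte precursors, over 2 genes in each, was 2.58 and -3.35. The log2 ratio of the share of endothelial nuclei with Slco1a4 was 0.79 in Ctrl (95% interval 0.33 to 1.27) and -0.14 in ADWA11 (-0.72 to 0.46), and that of the share with Plvap was -0.34 (-0.89 to 0.22) and 0.55 (-0.027 to 1.15). The interval for Slco1a4 in ADWA11 and both of these intervals for Plvap include 0. For Plvap in ADWA11 the interval left out 0 after thinning to 1000 UMIs, at 1.84 (0.68 to 3.23), and with the exclusion genes not used, at 0.75 (0.32 to 1.19), while in Ctrl it included 0 in both. In the female nuclei of ADWA11 alone the barrier median was 0.60, on the same side of 0 as in Ctrl.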

How the results depend on the processing

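Shares of endothelial nuclei depended most on the choice of nuclei, as log2 ratios. Without neural nuclei in the denominator they were 1.16 for 21 against 7 dpi in Tgfbr2-cKO (2.17 before), and -0.76 and -0.15 for Tgfbr2-cKO against Ctrl at 7 and 21 dpi (-2.56 and -0.83 before). With no exclusion gene tolerated they were -0.28 for 21 against 7 dpi in Ctrl (0.44 before), and -1.88 and 0.63 for Tgfbr2-cKO against Ctrl at 7 and 21 dpi. Without mixed nuclei they were 0.051 for the times in Ctrl and -0.28 for Tgfbr2-cKO at 21 dpi. With the exclusion genes not used, an alternative chosen after seeing the data, they were 0.79 and -1.51, and with only Col1a2 dropped, chosen likewise, -1.35 for Tgfbr2-cKO at 21 dpi. In female nuclei the times gave 1.72 in ADWA11 (0.63 before) and ADWA11 against Ctrl at 21 dpi 0.29 (-0.64 before). In male nuclei the times gave -0.40 in ADWA11 and 0.90 in Tgfbr2-cKO, ADWA11 against Ctrl at 21 dpi -1.37, and Tgfbr2-cKO against Ctrl -1.97 and -1.32. Thinning, other marker minimums and the percentile filter moved none of the share ratios beyond their intervals.

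Counts of called genes, higher and lower, moved as follows. With at least 50 UMIs they were 603 and 184 for the times in Ctrl, 435 and 320 in ADWA11, 260 and 113 for ADWA11 against Ctrl at 7 dpi and 139 and 244 later, and 326 and 367 for Tgfbr2-cKO. With no minimum, 538 were higher in ADWA11 and 1047 in Tgfbr2-cKO at 21 dpi. Without mixed nuclei, 577 and 461 were higher at 21 dpi in Ctrl and ADWA11, 262 lower in ADWA11 at 21 dpi, and 267 and 290 called in Tgfbr2-cKO. Without the 5 top nuclei of each gene, 1689 were higher at 21 dpi in Ctrl, 375 and 666 lower in ADWA11 at 7 and 21 dpi, and 127 and 1776 called in Tgfbr2-cKO, where so small a library loses most by this step. Female nuclei gave 618 and 556 higher at 21 dpi in Ctrl and ADWA11 and 270 lower in ADWA11 at 21 dpi. Male nuclei gave 566 and 464 higher at 21 dpi, 302 higher in ADWA11 at 7 dpi and 230 higher in Tgfbr2-cKO. With the exclusion genes not used, 1669 were higher at 21 dpi in Ctrl and 406 and 708 lower in ADWA11 at 7 and 21 dpi. Of 100 such counts 68 stayed within 1.5 times.

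Medians of called lists changed sign in 6 instances. The barrier list of ADWA11 from 7 to 21 dpi was at 0.60 in female nuclei. The leukocyte list of ADWA11 against Ctrl at 7 dpi was at 0.088 with no minimum and 0.15 with the exclusion genes not used, and that of Tgfbr2-cKO at 21 dpi at 0.15 without mixed nuclei. The proliferation list of Tgfbr2-cKO against Ctrl at 21 dpi had 4 of 6 genes called higher (median 1.94), beside 6.44% of all genes. Its median was -0.33 with at least 50 UMIs and -0.99 in male nuclei. In that Tgfbr2-cKO library, the 2 of 97 nuclei with at least 3 proliferation genes held 53.4% of the UMIs of the list. Single genes that changed sign were Spock2 in female nuclei of ADWA11 across the times (1.46), Cd36 there without its top nuclei (0.049) and in male nuclei (0.20), and Itgb8 of Tgfbr2-cKO at 21 dpi without its top nuclei (-1.55), in female (-0.81) and in male nuclei (-0.36). The causes were not tested. Among the contrasts of positive with negative nuclei, the TGFβ and BMP list changed sign with thinning, to -0.053 for Plvap and 0.39 for Angpt2, Apln or Esm1, and to 0.19 for the latter without mixed nuclei. In the other 45 of 48 alternatives the sign of the mean was that of the main contrast, and with at most 5 libraries none could pass 0.05. Tgfbr2-cKO rested on the fewest nuclei, 37 at 7 dpi and 97 at 21 dpi. No paired analysis was possible because the groups compared share fewer than 2 replicate numbers, each being 1 library. A fit over the mice, which share a library and were told apart by their counts, was not run.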
